A study of Mus musculus with 12 samples.

Results

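The IkB family holds the inhibitors of the transcription factor NF-kB. The members were taken as the rows of the count table named Nfkbia, Nfkbib, Nfkbie, Nfkbid, Nfkbiz and Bcl3, and all 6 were found among 50559 genes. The data are RNA sequencing of bone marrow-derived macrophages of C57BL/6 mice, which are grown in culture from marrow progenitors. HDM libraries came from cells given house dust mite (HDM) allergen for 1 h, an extract that sets off airway allergy, and vehicle libraries from cells given vehicle for 1 h, with 6 libraries per group, numbered 1 to 6. The labels name no genotype other than the strain and no age. The labels also do not say whether the libraries came from separate mice or cultures, and the spread that enters each p-value is that between libraries, which may be technical.

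NF-kB dimers wait in the cytoplasm of a resting macrophage, held there by the classical inhibitors IkB-alpha, IkB-beta and IkB-epsilon, whose ankyrin repeats cover the nuclear localisation signal. A signal from a pattern recognition receptor activates the IKK kinases, which mark these inhibitors for ubiquitination and destruction by the proteasome. NF-kB then enters the nucleus, and the gene of IkB-alpha is one of its best known targets, so the inhibitor is made again. The atypical members IkB-NS, IkB-zeta and Bcl-3 sit in the nucleus, bind NF-kB dimers on DNA and can raise or lower the transcription of chosen genes.

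The sequences around the start sites are shown first because NF-kB is known to act on several of these genes. RefSeq promoter windows (GRCm38.p6) matched 5 of the 6 members by symbol, all but Nfkbiz, which was thus not searched. These windows ran from 250 bases before to 50 bases after a start. Each was searched on both strands for the kappaB consensus decamer GGGRNNYYCC. Here R is A or G, Y is C or T and N is any base. Strings that depart from this pattern were not counted, and matches that overlap each other were counted once. Capitals mark these matches in the windows below, printed 5′ to 3′ on the gene's own strand.
Nfkbia, chr12:55492598-55492897, strand -: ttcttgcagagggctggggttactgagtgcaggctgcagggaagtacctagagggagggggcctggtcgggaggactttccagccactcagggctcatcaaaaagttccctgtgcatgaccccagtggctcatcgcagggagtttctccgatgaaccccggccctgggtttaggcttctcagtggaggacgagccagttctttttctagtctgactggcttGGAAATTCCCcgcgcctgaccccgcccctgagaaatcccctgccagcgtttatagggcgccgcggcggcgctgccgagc
Nfkbie, chr17:45555450-45555749, strand +: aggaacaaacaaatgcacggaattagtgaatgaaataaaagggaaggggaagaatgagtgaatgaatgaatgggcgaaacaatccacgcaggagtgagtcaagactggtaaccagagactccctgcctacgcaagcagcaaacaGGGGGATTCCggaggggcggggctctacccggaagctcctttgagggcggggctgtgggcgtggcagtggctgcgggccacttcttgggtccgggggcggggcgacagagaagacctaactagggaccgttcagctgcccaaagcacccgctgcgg
Nfkbid, chr7:30422156-30422455, strand +: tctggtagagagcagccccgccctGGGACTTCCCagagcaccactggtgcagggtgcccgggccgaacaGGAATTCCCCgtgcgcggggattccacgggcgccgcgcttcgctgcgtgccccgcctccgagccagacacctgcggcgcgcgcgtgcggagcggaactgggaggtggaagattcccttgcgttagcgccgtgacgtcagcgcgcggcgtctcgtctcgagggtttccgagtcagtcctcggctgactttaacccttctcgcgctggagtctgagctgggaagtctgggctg
Bcl3, chr7:19822706-19823005, strand -: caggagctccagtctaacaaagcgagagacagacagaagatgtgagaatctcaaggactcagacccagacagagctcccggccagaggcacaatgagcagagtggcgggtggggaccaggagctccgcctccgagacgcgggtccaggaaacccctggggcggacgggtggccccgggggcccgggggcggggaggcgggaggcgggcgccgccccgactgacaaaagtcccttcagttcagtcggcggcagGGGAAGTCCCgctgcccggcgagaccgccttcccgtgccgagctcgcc
Nfkbib, chr7:28766595-28766894, strand -: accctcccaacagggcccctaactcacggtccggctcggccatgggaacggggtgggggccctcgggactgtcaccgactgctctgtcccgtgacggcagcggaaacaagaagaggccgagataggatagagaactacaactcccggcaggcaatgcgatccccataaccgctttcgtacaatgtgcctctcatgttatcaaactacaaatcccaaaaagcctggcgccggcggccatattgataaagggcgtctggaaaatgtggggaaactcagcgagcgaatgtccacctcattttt
The window of Nfkbia, the gene of IkB-alpha, holds 1 match, from -29 to -20 counted from the start. The window of Nfkbie, the gene of IkB-epsilon, holds 1 from -106 to -97, and that of Bcl3 holds 1 just past the start, from 2 to 11. Nfkbid, the gene of IkB-NS, has 3 start sites in the table. The window printed holds 2 matches, from -226 to -217 and from -181 to -172, and the other two hold none. No match lies in the window of Nfkbib, the gene of IkB-beta. Of all 32851 windows of this length, 8.46% hold the decamer. The AP-1 motif TGANTCA, searched the same way, is in 7.81% of all windows and, among those of the members, only in that of Nfkbie, from -156 to -150, with no overlap with the decamer. A match is a string of letters and was not tested as a binding site.

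The depth, in counted reads, ran from 19.76 M to 119.71 M in the HDM libraries and from 19.69 M to 62.41 M in the vehicle libraries. The first principal component of log2 CPM, with 42.2% of the variance, parted numbers 5 and 6 in both groups (27.82 to 36.06) from the other libraries (-21.67 to -10.11). Results are therefore also given for numbers 5 and 6 and for numbers 1 to 4. The 8 macrophage markers summed to 16580 to 20410 CPM with HDM and 16340 to 20810 CPM with vehicle, and the adjusted p of these 8 genes in edgeR was 0.9714 or more. Most of that sum was Lyz2, at a mean of 11510 CPM with HDM and 11600 CPM with vehicle. All 6 dendritic cell markers, all 6 lymphocyte markers and all 5 markers of mast cells or basophils averaged under 1 CPM. So did 6 of 7 neutrophil markers, all but S100a8 (4.28 CPM with HDM, 4.36 CPM with vehicle). Of the 5 markers of stroma or endothelium 4 did, all but Pecam1 (2.03 CPM with HDM, 1.99 CPM with vehicle). CPM means counts per M reads, scaled with TMM factors.

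All 6 members rose with HDM. Groups were compared by the quasi-likelihood F test of edgeR, two-sided, over all 13530 genes that passed the filter on low counts, with Benjamini-Hochberg adjustment over all of them and calls made at an adjusted p under 0.05. Over all tested genes 2.9% were called higher, and 7.9% with the replicate number as a block in the fit. In all 6 members every HDM library also lay above every vehicle library, which held for 2.32% of tested genes. The members came from 2 classes by the place where their proteins act, and each class held large and small rises. Fold changes ran from 1.29 to 11.3 among the classical members and from 1.41 to 5.62 among the nuclear ones. The median log2 change of the 6 members was 1.67, against -0.0048 over all tested genes.

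Among the classical inhibitors, Nfkbia had 447 to 585 CPM with HDM (median 495) and 33.2 to 54.9 CPM with vehicle (median 47.7). The groups lay far apart. Its log2 fold change was 3.50 ± 0.13 SE (n = 6 each, edgeR adjusted p = 3.25e-09), the 6th smallest p and the 15th largest rise of all tested genes. With HDM the libraries numbered 5 and 6 were the highest, at 579 and 585 CPM, and with vehicle the same numbers were the lowest, at 33.2 and 35.5 CPM.

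Nfkbie, whose product holds mainly dimers of c-Rel and RelA, had 49.3 to 64.6 CPM with HDM (median 54.8) and 19.6 to 26.3 CPM with vehicle (median 23.7). Here numbers 5 and 6 were the highest libraries of both treatments. The log2 fold change was 1.27 ± 0.08 SE (edgeR adjusted p = 4.94e-07). Nfkbib, whose product is broken down and made again more slowly than IkB-alpha, had 36.5 to 39.3 CPM with HDM (median 37.9) and 27.7 to 32.1 CPM with vehicle (median 29.0). The rise was small, 1.29-fold or 0.37 ± 0.04 SE on the log2 scale, but the HDM libraries had a coefficient of variation of only 2.82% and the groups did not overlap (edgeR adjusted p = 7.06e-05).

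Among the nuclear members, Nfkbid had 39.4 to 54.3 CPM with HDM (median 45.2) and 7.21 to 9.31 CPM with vehicle (median 8.10). IkB-NS, its product, is known in mice as a brake on inflammatory genes in macrophages. The log2 fold change was 2.49 ± 0.09 SE (edgeR adjusted p = 3.25e-09), the 5th smallest p of all tested genes. Nfkbiz, the gene of IkB-zeta, had 157 to 199 CPM with HDM (median 175) and 25.8 to 52.8 CPM with vehicle (median 47.0). Its vehicle libraries fell into 2 levels, 28.7 and 25.8 CPM in numbers 5 and 6 and 45.7 to 52.8 CPM in numbers 1 to 4, a coefficient of variation of 28.4%. The log2 fold change was 2.06 ± 0.17 SE (edgeR adjusted p = 5.1e-06), with the largest SE of the 6 members.

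Bcl3, whose product binds homodimers of p50 or p52 and can keep p50 on DNA, had 20.2 to 26.6 CPM with HDM (median 20.8) and 13.05 to 19.2 CPM with vehicle (median 14.5). The library HDM 3 stood highest at 26.6 CPM, and the vehicle library of the same number was the highest of its own group at 19.2 CPM. The lowest HDM library lay only 1.04 CPM above that vehicle library. The log2 fold change was 0.49 ± 0.10 SE (edgeR adjusted p = 0.00981). If neighbouring numbers share a source and their counts are summed, which leaves 3 samples per group, the calls of Bcl3 (log2 fold change 0.47, adjusted p = 0.31) and of Nfkbib (0.36, adjusted p = 0.0726) are lost and the other 4 remain.

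**Figure D1:**
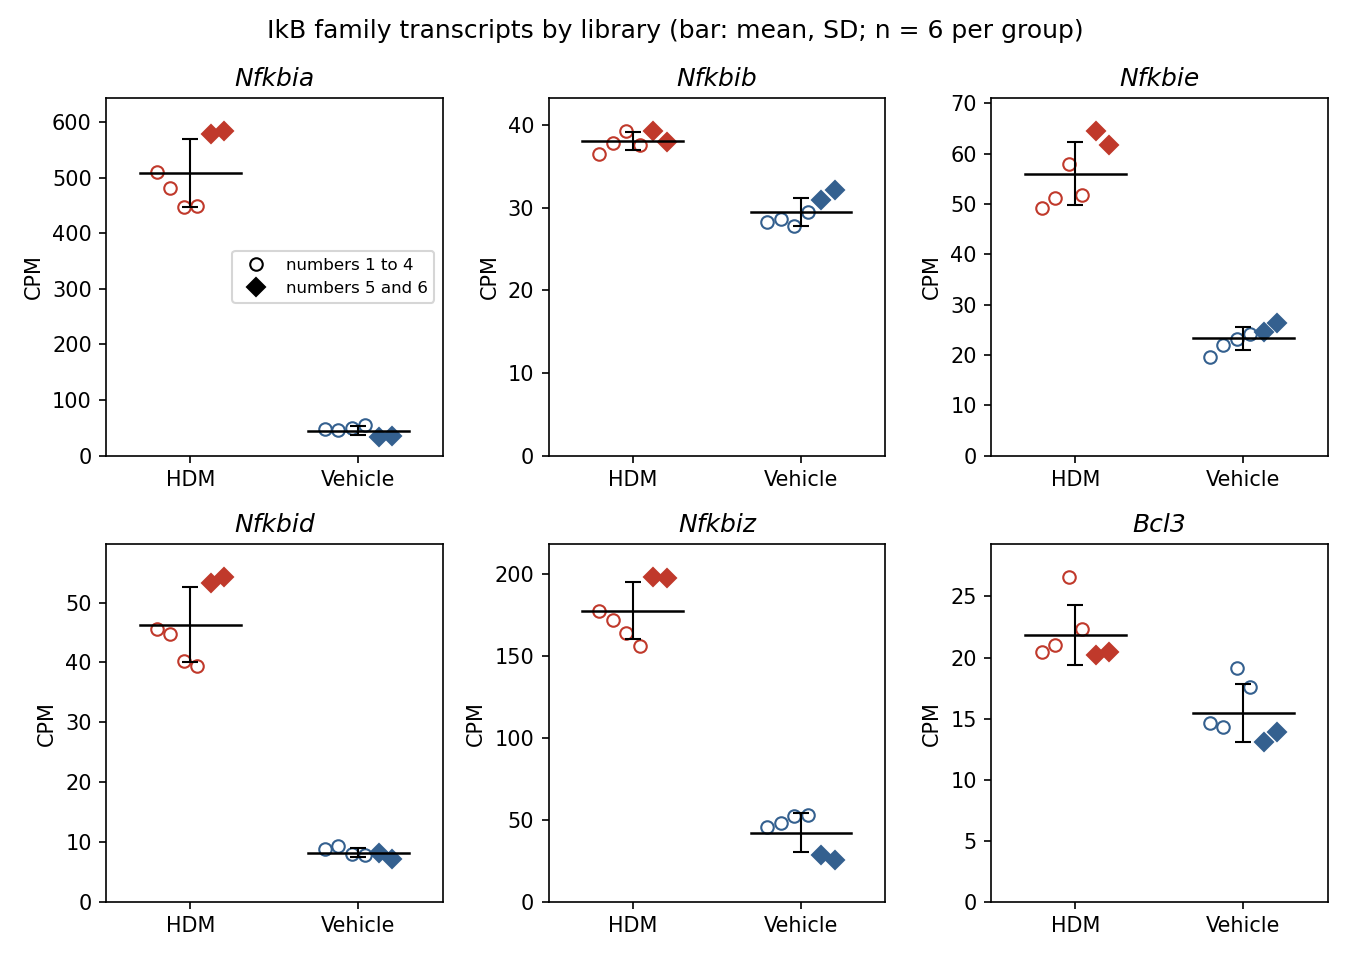
CPM of each IkB family gene in every library, HDM on the left and vehicle on the right of each panel, with numbers 1 to 4 as open circles and 5 and 6 as filled diamonds; the bar gives the mean and SD (n = 6 per group) and each axis starts at 0. The groups do not overlap in any of the 6 panels, and numbers 5 and 6 are the highest HDM libraries and the lowest vehicle libraries for Nfkbia and Nfkbiz.

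Levels of different genes were compared per kb of exon, with exon lengths from the basic set of GENCODE M21, which may differ from the annotation used for counting. With HDM the order was Nfkbia (322 ± 39.0 CPM per kb, SD, n = 6), Nfkbiz (43.0 ± 4.16), Nfkbie (23.0 ± 2.57), Nfkbid (20.7 ± 2.82), Nfkbib (17.9 ± 0.502) and Bcl3 (11.8 ± 1.33). The ranges of Nfkbie and Nfkbid overlapped, as did those of Nfkbid and Nfkbib. With vehicle the order was Nfkbia (28.4 ± 5.42 CPM per kb), Nfkbib (13.9 ± 0.789), Nfkbiz (10.2 ± 2.91), Nfkbie (9.58 ± 0.95), Bcl3 (8.35 ± 1.3) and Nfkbid (3.68 ± 0.333). The ranges of Nfkbiz, Nfkbie and Bcl3 overlapped one another, while Nfkbid lay below all the others in level. The place of Nfkbiz in the vehicle order differed by library set. With vehicle it averaged 6.59 CPM per kb in numbers 5 and 6, below Nfkbie (10.4) and Bcl3 (7.28), and 12.1 CPM per kb in numbers 1 to 4, above Nfkbie (9.14) and Bcl3 (8.89). The HDM order was the same in both sets. IkB-alpha transcripts thus led the family in both groups, and IkB-NS was last with vehicle and no longer last with HDM. In bulk RNA, a change in the RNA of each cell and a change in the number of responding cells cannot be told apart.

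Whether HDM moved the members by different amounts was asked with the log2 ratio of 2 members' counts within a library, which needs no scaling between libraries. All 15 pairs were compared between the 6 HDM and 6 vehicle libraries by an exact permutation test, two-sided, with p adjusted over the 15 pairs. In 13 pairs the ratio differed between HDM and vehicle with an exact p of 0.00216, the smallest that this design allows (adjusted p = 0.0025). This test takes the 12 libraries as independent, which the labels do not state. The pairs were not compared with neighbouring numbers summed, where 3 samples per group would be too few for any pair to pass. Nfkbia gained on every other member. Its log2 ratio to Nfkbid was 3.46 ± 0.03 SD in HDM libraries and 2.43 ± 0.28 SD in vehicle libraries, a difference of 1.03. Its ratio to Nfkbiz was 1.51 ± 0.04 with HDM and 0.11 ± 0.20 with vehicle, a difference of 1.40. Nfkbie gained 0.90 on Nfkbib and 0.76 on Bcl3.

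The 2 pairs that did not pass were those of members with the most similar changes. For Nfkbid over Nfkbiz the difference of the log2 ratio was 0.36 (-1.95 ± 0.06 with HDM and -2.31 ± 0.42 with vehicle, exact permutation p = 0.0606, adjusted p = 0.0649). In numbers 1 to 4 alone that difference was 0.58 (exact permutation, adjusted p = 0.0306), where the ratio ran from -2.03 to -1.95 with HDM and from -2.76 to -2.38 with vehicle. In numbers 5 and 6 it ran from -1.90 to -1.86 with HDM and from -1.84 to -1.80 with vehicle. For Bcl3 over Nfkbib it was 0.14 (exact permutation p = 0.29, adjusted p = 0.29). In the 6 HDM libraries Nfkbia kept a nearly fixed ratio to Nfkbid, from 3.43 to 3.51, though the levels of both differed by library. This was the smallest SD with HDM of the 15 pairs. The ratio of Nfkbia to Nfkbiz was nearly as narrow, from 1.443 to 1.565 with HDM. Vehicle libraries spread from 2.01 to 2.81 in the ratio of Nfkbia to Nfkbid. That spread followed the library sets, with 2.01 to 2.30 in numbers 5 and 6 and 2.33 to 2.81 in numbers 1 to 4.

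**Figure D2:**
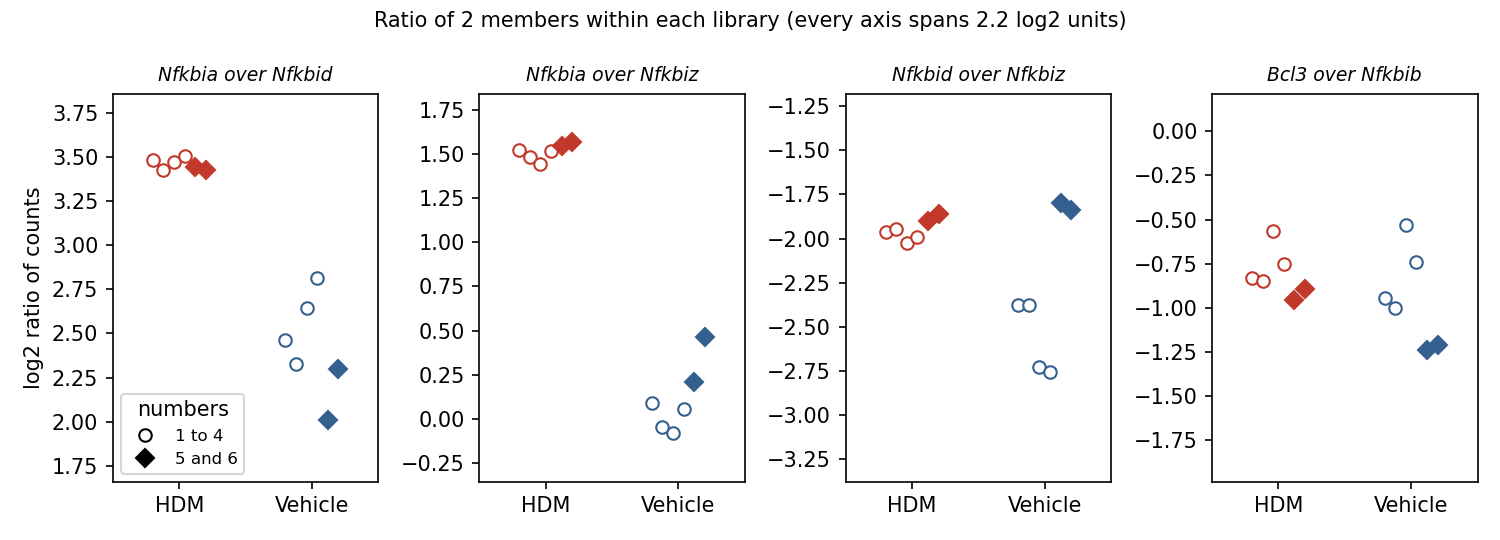
Log2 ratio of the counts of 2 members in every library, HDM on the left and vehicle on the right, with numbers 1 to 4 as open circles and 5 and 6 as filled diamonds; every axis spans the same 2.2 log2 units. The HDM libraries lie within 3.43 to 3.51 for Nfkbia over Nfkbid and apart from vehicle, while the groups overlap for Nfkbid over Nfkbiz and Bcl3 over Nfkbib.

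The size of the HDM effect differed between these library sets in 2 members, with only 2 libraries per group in numbers 5 and 6. The split was known from these data, and numbers 5 and 6 may share a source. The SE and p below thus measure the spread between libraries, not between independent sets. The interaction of treatment with set (numbers 5 and 6 against 1 to 4) was tested in edgeR over all 13530 genes, and 0.0813% of them, 11 genes, were called. Nfkbiz ranked 1st of these by p and Nfkbia 3rd. Nfkbiz had 198 CPM with HDM and 27.3 CPM with vehicle in numbers 5 and 6, against 168 CPM with HDM and 49.9 CPM with vehicle in numbers 1 to 4. Its log2 fold change was 2.88 in numbers 5 and 6 and 1.76 in numbers 1 to 4, a difference of 1.12 ± 0.09 SE (edgeR adjusted p = 4.04e-05). For Nfkbia the means were 582 CPM with HDM and 34.4 CPM with vehicle in numbers 5 and 6, and 472 CPM with HDM and 50.04 CPM with vehicle in numbers 1 to 4. The log2 fold change was 4.07 in numbers 5 and 6 and 3.24 in numbers 1 to 4, a difference of 0.83 ± 0.09 SE (edgeR adjusted p = 0.000526). In both genes numbers 5 and 6 were higher with HDM and lower with vehicle.

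Nfkbid leaned the same way, with a log2 fold change of 2.83 in numbers 5 and 6 and 2.33 in numbers 1 to 4 (difference 0.50 ± 0.12 SE, edgeR adjusted p = 0.328). With the replicate number as a block in the fit, its difference was called (0.50, adjusted p = 0.0151), among 0.473% of tested genes. Nfkbie (0.07 ± 0.11), Bcl3 (0.14 ± 0.17) and Nfkbib (-0.11 ± 0.06) were not called, with adjusted p of 0.867 or more. The HDM effect within a number ran from 8.17-fold to 17.4-fold for Nfkbia, from 2.96-fold to 7.65-fold for Nfkbiz and from 4.81-fold to 7.53-fold for Nfkbid. Numbers 5 and 6 gave both of the highest values for these genes. It ran from 2.14-fold to 2.63-fold for Nfkbie, from 1.27-fold to 1.55-fold for Bcl3 and from 1.18-fold to 1.42-fold for Nfkbib.

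Other genes moved with the library set too. The 9 called genes that are no members were Dusp1, Btg2, Gadd45b, Irf1, Ptgs2, Fosb, Bhlhe40, Fos and Map3k8, named after their values were seen. The effect was larger in numbers 5 and 6 for 6 of the 11 called genes and smaller for the other 5 (Dusp1, Btg2, Ptgs2, Fosb and Fos). The summed macrophage markers were at 16340 to 16840 CPM in numbers 5 and 6 and 17070 to 20810 CPM in numbers 1 to 4. The summed mast cell and basophil markers were at 2.07 to 2.26 CPM in numbers 5 and 6 and 0.145 to 0.42 CPM in numbers 1 to 4. Nearly all of that sum was Kit, with 420 reads over the 12 libraries, while Cpa3 had 12 reads and Mcpt8, Tpsb2 and Ms4a2 had 0. The summed markers of stroma and endothelium were at 1.80 to 4.14 CPM in numbers 5 and 6 and 3.44 to 6.61 CPM in numbers 1 to 4, and those of neutrophils at 5.37 to 6.44 CPM in numbers 5 and 6 and 3.52 to 5.93 CPM in numbers 1 to 4. Their part in the difference was not tested, and the labels do not say what numbers 5 and 6 share.

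**Figure D3:**
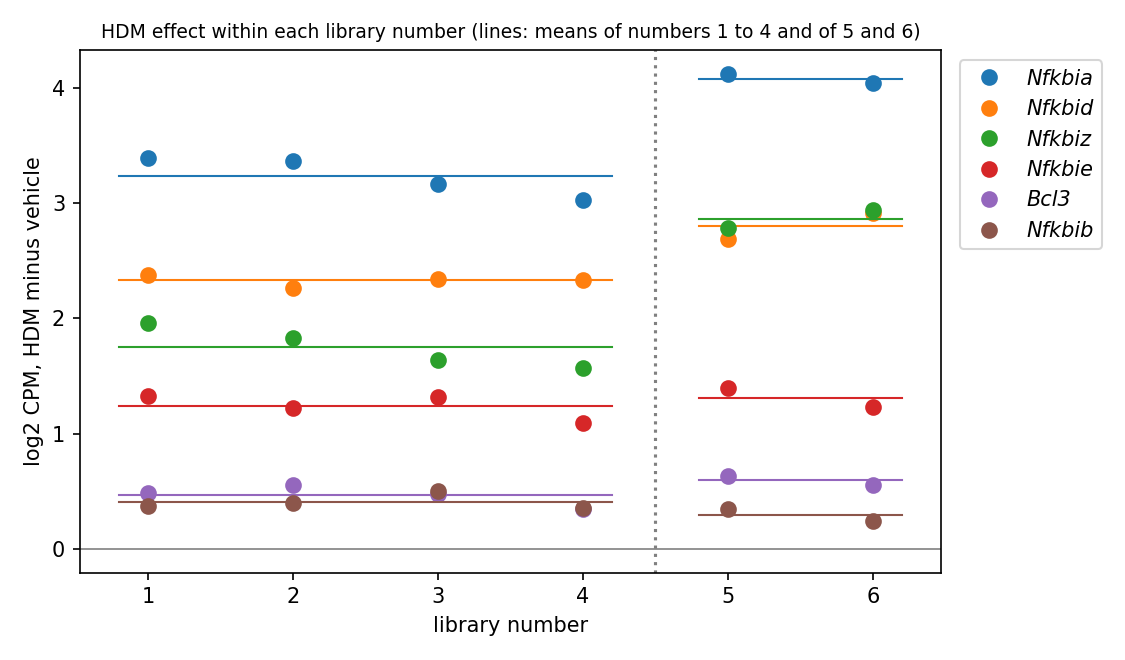
Log2 CPM with HDM minus log2 CPM with vehicle for each IkB family gene (colour) in each library number, with lines at the means of numbers 1 to 4 and of 5 and 6. Every value is above 0, and Nfkbia, Nfkbiz and Nfkbid are higher in numbers 5 and 6, where Nfkbiz reaches 7.65-fold.

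The genes around the family were taken from lists of its partners, regulators and reported targets. Of the 5 NF-kB subunit genes, 2 rose, and 3 with the replicate block. The share called higher over all tested genes was 2.9%, and 7.9% with the block. Rel, the gene of c-Rel, averaged 97.7 ± 13.3 CPM with HDM and 59.05 ± 5.31 CPM with vehicle (log2 fold change 0.73 ± 0.09 SE, edgeR adjusted p = 0.00016). Relb was at 0.13 ± 0.03 (edgeR adjusted p = 0.0396), a call lost when 1 library was left out, be it number 2, 4, 5 or 6 of HDM or number 1, 2, 3 or 4 of vehicle (adjusted p 0.0537 to 0.0972). Rela, the subunit that IkB-alpha chiefly holds, was at 99.5 ± 5.34 CPM with HDM and 98.8 ± 4.53 CPM with vehicle (0.01 ± 0.04, adjusted p = 1). Nfkb1 and Nfkb2, whose precursor proteins also act as inhibitors of the IkB type, were at 0.04 ± 0.03 (adjusted p = 0.727) and 0.11 ± 0.04 (adjusted p = 0.186, and 0.00903 with the block).

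Of 10 genes of the IKK complex and kinases upstream of it, Tab1, the gene of an adaptor of the kinase TAK1, fell by 0.32 ± 0.07 on the log2 scale (15.7 ± 1.7 CPM with HDM and 19.5 ± 1.27 CPM with vehicle, edgeR adjusted p = 0.0203). Its call was lost without HDM 4 (adjusted p = 0.0519), and the other 9 were not called, among them Map3k14 (0.36 ± 0.22, adjusted p = 0.608) and Map3k7, the TAK1 gene (0.04 ± 0.03, adjusted p = 0.644). Over all tested genes 2.47% were called lower. With the block, which called 6.81% of tested genes lower, the list had 1 rise (Map3k14, 0.38, adjusted p = 2.37e-05) and 2 falls (Tab1 and Ikbke). The next list held 11 genes for the ubiquitination of IkB proteins, its control or the binding of these proteins. Among them, Btrc and Fbxw11 are the genes of the ligase subunits that recognise the phosphorylated inhibitor. In this list edgeR called 0, with 1 at an unadjusted p under 0.05, 0 with DESeq2 and 0 with limma-voom. The smallest p were those of Cops5 (-0.08 ± 0.03, adjusted p = 0.177), Uba3 (0.06 ± 0.04, adjusted p = 0.597) and Nkiras1, whose product binds IkB-beta (0.09 ± 0.08, adjusted p = 0.859). Of 10 genes of deubiquitinases and partners of A20, 1 rose, Tnfaip3, the gene of A20 itself (log2 fold change 3.25 ± 0.17 SE, edgeR adjusted p = 9.3e-08), while Otulin was at -0.06 ± 0.03 (adjusted p = 0.283) and Cyld at 0.07 ± 0.03 (adjusted p = 0.413). With the block 1 rose too. The share called higher over all tested genes was 2.9%, and 7.9% with the block.

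Transcripts of Nfkbiz and Nfkbid are known targets of decay factors such as Regnase-1. Of 7 genes that act on mRNA decay, 3 rose, and 5 with the block. Over all tested genes 2.9% were called higher, and 7.9% with the block. Zc3h12a, which encodes Regnase-1, averaged 98.9 ± 3.4 CPM with HDM and 78.7 ± 9.38 CPM with vehicle (0.33 ± 0.07, edgeR adjusted p = 0.0121). Zfp36 was at 2.63 ± 0.13 (adjusted p = 3.53e-08) and Zfp36l1, a second member of the tristetraprolin family, at 1.74 ± 0.13 (adjusted p = 1.92e-06). The Roquin genes Rc3h1 and Rc3h2 were at 0.19 ± 0.06 (adjusted p = 0.102, and 0.00135 with the block) and 0.23 ± 0.08 (adjusted p = 0.186, and 0.0112 with the block).

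Genes known from mouse cells to need IkB-zeta for full induction formed the last list of 8, of which 5 were tested and 4 rose. Il6, Csf3 and Edn1 averaged only 0.0219, 0.0201 and 0.0856 CPM with vehicle, so they passed the low-count filter mainly through the HDM libraries. The count of 4 among 5 depends on that selection and is no support for a rise of the list. Over all tested genes 2.9% were called higher. Cebpd, the gene of a transcription factor, averaged 8.47 ± 1.59 CPM with HDM and 3.35 ± 0.769 CPM with vehicle (log2 fold change 1.33 ± 0.16 SE, edgeR adjusted p = 0.000172). Edn1, the endothelin gene, stood at 0.472 ± 0.141 CPM with HDM and 0.0856 ± 0.0702 CPM with vehicle (2.30 ± 0.42, adjusted p = 0.00526). The cytokine genes Il6 and Csf3 rose by far more, at 8.48 ± 0.52 (adjusted p = 3.19e-07) and 5.46 ± 0.48 (adjusted p = 8.3e-06), with 2636 and 248 reads over the HDM libraries and 6 and 4 over the vehicle libraries. Lcn2, the siderophore-binding lipocalin gene, was at 0.30 ± 0.39 (adjusted p = 0.938). Il12b had 28 reads with HDM and 3 with vehicle, Csf2 had 25 reads with HDM and 2 with vehicle, and Ccl20 had 0 in both. These genes did not pass the filter and were not tested.

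**Figure D4:**
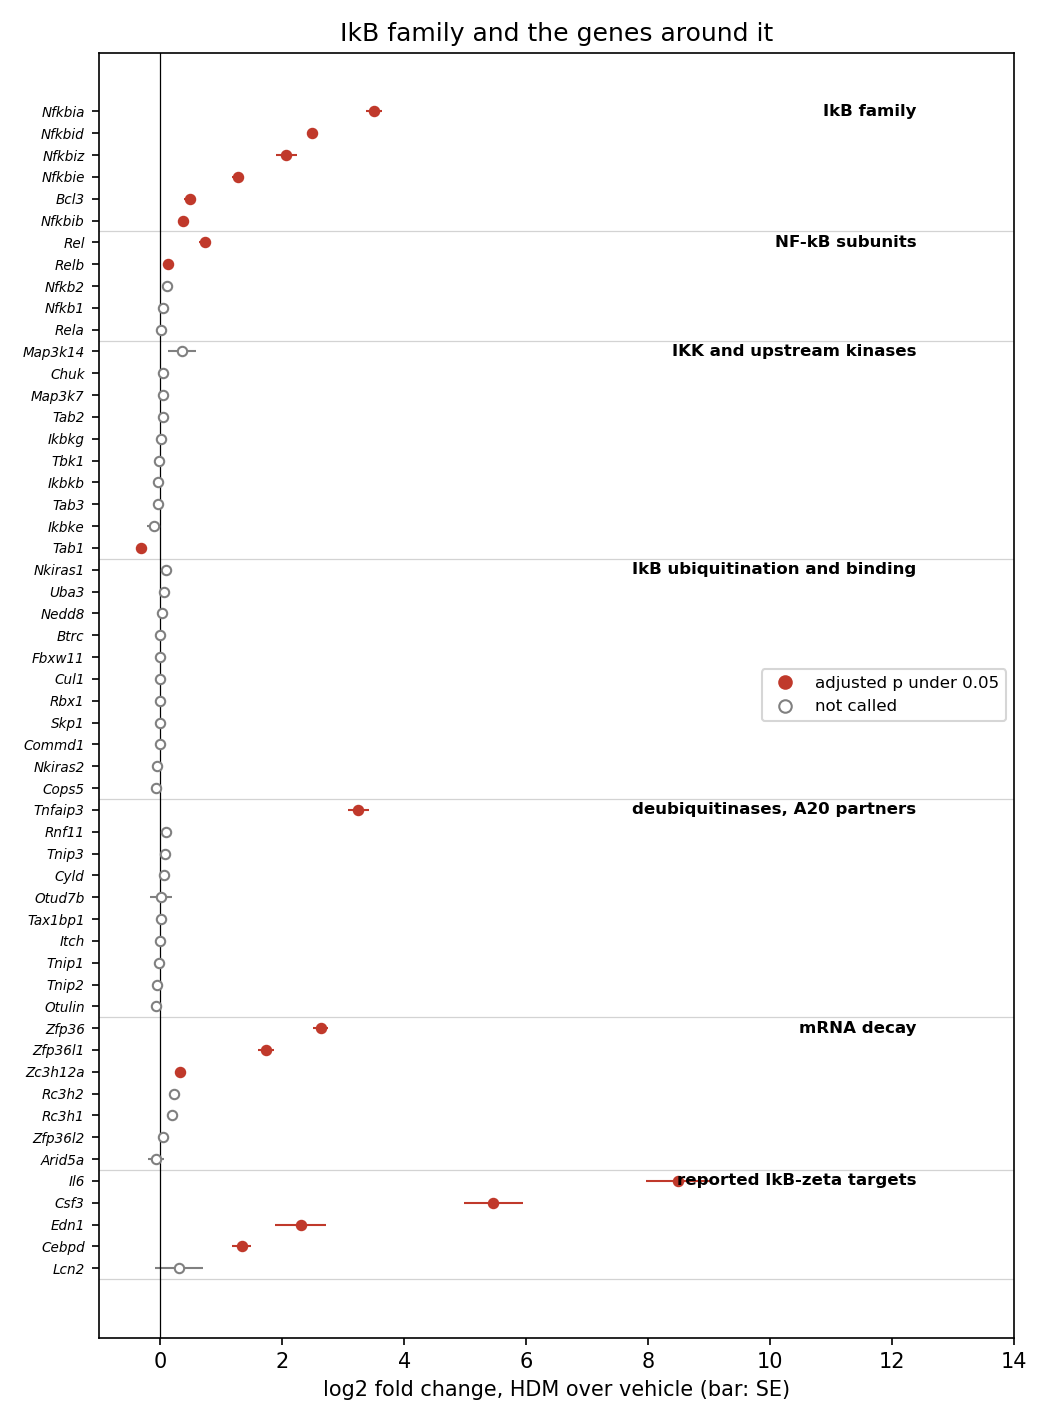
Log2 fold change of HDM over vehicle (bars: SE) of the 6 IkB family genes and of the tested genes of the lists around them, filled red where the adjusted p was under 0.05 and open grey where it was not. All 6 IkB family genes are filled, as are 2 of 5 NF-kB subunits, 1 of 10 genes in the IKK list and 0 of 11 in the list of ubiquitination and binding. So are 1 of 10 in the list of deubiquitinases, 3 of 7 genes that act on mRNA decay and 4 of 5 genes reported to need IkB-zeta. Il6, Csf3 and Edn1 of the last list passed the low-count filter mainly through the HDM libraries. Over all tested genes 2.9% were called higher and 2.47% lower. No difference between lists was tested.

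The genes whose pattern over the 12 libraries was most like that of each member were ranked by the root mean square difference of log2 CPM after centring each gene on its own mean. The candidates were 10787 tested genes that averaged 1 CPM or more and had reads in every library. The members themselves and gene models without a descriptive symbol were left out. Nearest to Nfkbia was Tnf, at 0.20 log2 units, followed by Socs3 (0.28) and Cxcl10 (0.36). Nearest to Nfkbid were Phlda1 (0.25), Kdm6b (0.29) and Zfp36 (0.30). Nearest to Nfkbiz were Phlda1 as well (0.24), Dusp2 (0.26) and Ccl4 (0.31). Nfkbie was nearest to Cited2 (0.13), Spry2 (0.15) and Trib1 (0.16), Bcl3 to Midn (0.11), Noct (0.11) and Chsy1 (0.12), and Nfkbib to Mdm2 (0.06), Dclre1b (0.06) and Slc20a1 (0.07). The 12 libraries share the treatment and the split of numbers 5 and 6, so likeness of pattern describes both.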

How the data were processed

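RNA was sequenced in 6 HDM and 6 vehicle libraries, grouped and numbered by their titles. Per the labels' protocols a stranded, poly(A)-selecting kit was used. The deposited table holds unscaled read counts per gene, made by the authors with Trim Galore 0.6.10, cutadapt 4.5, STAR 2.6.0c and featureCounts 2.0.6, per the submitters' processing notes, which name the builds GRCm38 and mm39 with no role. Annotation release and strand setting were not stated in the labels, and overlapping genes may share reads.

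Counts were tested with edgeR 4.0.16 (limma 3.58.1, R 4.3.3), with TMM factors, filterByExpr and group as the only term, on 13530 genes. SE is the absolute log2 fold change over the square root of F. Ratios of members used 0.5 added to each count. The alternatives were DESeq2 1.42.0, limma-voom, other factors, a robust dispersion, no filter, each library left out, subsets of numbers, summed neighbours and a replicate block.

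Same-numbered libraries deviated together (correlations 0.367 to 0.672, all above 0.1), which met the bound set for pairing. Numbers 1, 3, 4 and 5, however, correlated best with a neighbouring number. The split of numbers 5 and 6 in both groups also enters these correlations, so they cannot tell pairing by number from that split. The main tests did not use the numbers, and the replicate block was fitted as an alternative. No pair of libraries within a group agreed within sampling noise (chi-square per degree of freedom at least 2.18), and libraries of different groups were not compared. The closest pairs were neighbouring numbers, HDM 3 and 4 (2.18), vehicle 5 and 6 (2.77), HDM 5 and 6 (3.32) and vehicle 3 and 4 (3.78). Vehicle 1 and 2 were at 6.19, while HDM 1 and 2 (18.01) were less alike than HDM 1 and 3 (9.21). Whether neighbouring numbers share a source was not tested. Named genes were all members, the called genes and up to 3 smallest p of each list, and the 3 nearest patterns of each member. The members and lists were chosen with earlier results of these data known.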

Additional observations from a re-analysis of the deposited data

Results flagged for a closer look

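Among the 12 sets of 6 libraries (6 members in 2 groups), 1 held a library far from the others: Bcl3 in HDM 3 stood at 26.6 CPM against 20.2 to 22.4 CPM in the other HDM libraries, a gap of 0.668 of the whole range, where 0.625 is Dixon's bound for 6 values. Chance marks about 1 set in 20 this way. Bcl3 in vehicle 3 was also the highest of its group, at 19.2 CPM. Without HDM 3 the log2 fold change of Bcl3 was 0.44 (edgeR adjusted p = 0.0189).

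The HDM effect on Nfkbia was larger in numbers 5 and 6 than in numbers 1 to 4 by 0.83 on the log2 scale, and that on Nfkbiz by 1.12, both past the threshold of the interaction test in edgeR (adjusted p = 0.000526 and 4.04e-05). The split was known from these data to part the libraries, and numbers 5 and 6 may share a source.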

How the results depend on the processing

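All 6 members were called under every alternative except the sum of neighbouring numbers, which called 4. Without any 1 library the count stayed at 6, with log2 fold changes of 3.43 to 3.57 for Nfkbia, 0.35 to 0.39 for Nfkbib, 1.22 to 1.30 for Nfkbie, 2.44 to 2.54 for Nfkbid, 1.95 to 2.14 for Nfkbiz and 0.44 to 0.57 for Bcl3. With neighbours summed, Nfkbib was at 0.3574 (adjusted p = 0.0726) and Bcl3 at 0.4741 (adjusted p = 0.31). This setting leaves 3 samples per group. With the replicate block all 6 members kept their calls (Bcl3 at 0.50, adjusted p = 1.37e-07), and the difference between library sets was also called for Nfkbid. Of 15 pairs, 13 passed in the sign-flip test with the replicate block too, and 13 to 14 without any 1 library. The call of 2 members in the comparison of library sets held without each library. No result turned its direction in the settings that were run. The pairs were not compared in numbers 5 and 6 alone. There the log2 ratio of Nfkbid over Nfkbiz was lower with HDM (-1.90 to -1.86) than with vehicle (-1.84 to -1.80), unlike in numbers 1 to 4. Around the family, the call of Relb was lost with total library size (adjusted p = 0.0612), without the low-count filter (0.122), in numbers 5 and 6 alone (0.447) and with neighbours summed (0.551), as were those of Rel (0.0764), Tab1 (0.31), Zc3h12a (0.343) and Cebpd (0.0726) in the last. The causes were not tested. Over the alternatives, the rises ranged from 0 to 3 among NF-kB subunits and from 2 to 5 among genes that act on mRNA decay. In the IKK list up to 1 gene rose and up to 2 fell. In the ubiquitination list 1 gene fell with total library size, and of the genes reported to need IkB-zeta 3 rose with neighbours summed, against 4 otherwise. Counts of 2 to 28 reads per group limit Il12b and Csf2.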
